A study of Mus musculus with 12 samples.

Results

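Dense clusters of Scx-binding peaks were taken from the table of peaks called in E13.5 mouse forelimb. Overlapping peaks were first merged, which turned 12097 deposited peaks into 11636 merged peaks. A merged peak was kept as a member of a dense cluster when at least 2 other merged peaks had their midpoints within 20 kb on the same chromosome. This rule kept 1572 of the 11636 merged peaks, or 13.51%. Members no more than 20 kb apart were chained into 532 clusters. The rule used only the positions of the peaks, so the number, spacing and size of the clusters are given as a description, whereas the bases in the peaks, their place in the annotation and the expression of the genes around them were not used by it.

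For ChIP-seq, whole E13.5 forelimbs were taken from Scx Flag/Flag embryos, in which both copies of endogenous Scx carried a 2xFLAG tag at the carboxy terminus, with 3 anti-FLAG ChIP samples and 3 input samples, each pooled from several embryos. The RNA-seq samples were GFP+ cells sorted from E15.5 forelimbs of 3 Scx-/- embryos and 3 control littermates, whose own Scx genotype the labels do not give. In the Scx-/- embryos a lacZ cassette replaced the Scx coding sequence, and both groups carried the Scx-GFP transgene, whose reporter is driven by Scx regulatory sequence and marks tendon lineage cells. The tables used here hold 1 common peak list for all ChIP and input samples and 1 mean FPKM (fragments scaled to the length of the transcript and to the size of the library) per gene and group, so no value can be given for a single sample, and the depth and the spread between embryos behind each value are unknown. All 6 tendon markers examined were present in the sorted control cells at mean FPKM between 22.9 and 243, and their sum was 639 in control and 255 in Scx-/-. The summed mean FPKM of 6 muscle markers was 60.1 in control and 61.8 in Scx-/-, and that of 4 globin genes was 176 and 237. That of 5 cartilage markers was 110.0 and 87.4, of which Col2a1 alone was 78.3 and 57.1. The part of other cells in the results below was not tested.

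Scx (scleraxis) is a basic helix-loop-helix transcription factor that marks tendon progenitors and differentiating tendon cells. Factors of this class bind DNA as dimers with ubiquitous E-proteins at short sequences called E-boxes, CANNTG, in which the middle bases differ between factors. Genes with roles in development are often surrounded by several enhancers spread over long stretches of introns and intergenic DNA, and several binding sites of 1 factor close together are a common feature of such regions.

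The windows below are examples of members as sequence, picked for their motif content. Each is 200 bases around the midpoint of 1 member, read on the plus strand of the mm10 genome, in lower case with 2 motifs in capitals. The first is the Scx core, which is CAGATG with its reverse complement CATCTG, the palindrome CAGCTG or the palindrome CATATG, so that both strands are covered. The second is TGGAAA with its reverse complement TTTCCA, the core bound by Nfat factors. The first 4 windows come from clusters nearest to genes that the study singled out as depending on Scx or bound by it, and the other 5 from clusters with the most members. The windows were chosen with their values known. Within each cluster the window with the most Scx cores was taken, and among ties the one with the most TGGAAA. They are therefore richer in motifs than members at large, of which 25.2% held both motifs and 24.6% held 2 or more Scx cores.
Kera and Epyc (chr10:97626749-97626948): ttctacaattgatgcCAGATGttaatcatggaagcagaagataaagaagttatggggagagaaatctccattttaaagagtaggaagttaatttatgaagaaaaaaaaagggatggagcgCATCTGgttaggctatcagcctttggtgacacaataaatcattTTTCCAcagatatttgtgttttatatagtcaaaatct
Six2 (chr17:85893368-85893567): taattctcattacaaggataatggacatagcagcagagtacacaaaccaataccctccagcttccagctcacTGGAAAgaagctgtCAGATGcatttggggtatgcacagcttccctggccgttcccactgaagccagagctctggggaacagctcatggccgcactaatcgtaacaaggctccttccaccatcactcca
Dock4 (chr12:40693990-40694189): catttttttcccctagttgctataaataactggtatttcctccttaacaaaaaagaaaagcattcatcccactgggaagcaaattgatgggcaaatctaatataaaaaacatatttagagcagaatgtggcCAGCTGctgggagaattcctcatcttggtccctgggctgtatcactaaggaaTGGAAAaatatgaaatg
Fibin (chr2:110349894-110350093): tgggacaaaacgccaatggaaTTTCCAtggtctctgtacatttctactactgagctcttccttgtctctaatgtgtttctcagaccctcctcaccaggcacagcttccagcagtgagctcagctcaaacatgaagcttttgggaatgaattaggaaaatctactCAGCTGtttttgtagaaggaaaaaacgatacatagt
Col5a1 (chr2:27843019-27843218): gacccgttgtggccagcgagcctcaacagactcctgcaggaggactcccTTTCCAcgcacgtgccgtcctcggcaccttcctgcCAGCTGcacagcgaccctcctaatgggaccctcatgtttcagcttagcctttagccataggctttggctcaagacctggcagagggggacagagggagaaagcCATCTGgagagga
Spata18 (chr5:73798187-73798386): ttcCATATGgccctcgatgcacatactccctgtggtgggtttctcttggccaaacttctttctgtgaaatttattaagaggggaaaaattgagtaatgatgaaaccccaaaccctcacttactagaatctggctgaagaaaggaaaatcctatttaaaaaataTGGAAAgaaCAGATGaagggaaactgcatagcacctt
Dnm3 (chr1:162239248-162239447): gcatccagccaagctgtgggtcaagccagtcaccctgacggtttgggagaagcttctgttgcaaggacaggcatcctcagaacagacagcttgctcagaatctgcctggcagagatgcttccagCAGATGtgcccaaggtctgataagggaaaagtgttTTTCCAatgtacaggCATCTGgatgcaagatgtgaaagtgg
D830013O20Rik intron, nearest start Slc38a6 (chr12:73394083-73394282): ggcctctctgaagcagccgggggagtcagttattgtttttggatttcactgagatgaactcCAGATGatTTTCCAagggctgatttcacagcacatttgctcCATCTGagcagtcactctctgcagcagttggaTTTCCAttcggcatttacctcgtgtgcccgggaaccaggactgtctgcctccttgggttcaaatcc
Smg6 intron, nearest start Srr (chr11:75047110-75047309): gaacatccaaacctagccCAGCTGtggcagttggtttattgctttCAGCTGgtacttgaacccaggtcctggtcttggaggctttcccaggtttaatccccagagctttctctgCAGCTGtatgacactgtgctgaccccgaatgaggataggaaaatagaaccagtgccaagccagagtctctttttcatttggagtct

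The window of the Kera and Epyc cluster, 17.2 kb before the start of Epyc, held CAGATG near one end, with CATCTG and then TTTCCA further along. Both forms, CAGATG as well as CATCTG, also stood in the windows of the Dnm3 and Slc38a6 clusters, the latter with 2 TTTCCA sites. The window inside Smg6 held 3 copies of the palindrome CAGCTG, and the windows of the Dock4 and Fibin clusters held 1 CAGCTG each. The Six2 window held TGGAAA and, a few bases further, CAGATG. A match to these letters is a description of the window and does not show which bases Scx contacted.

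Most merged peaks stood apart from others. 7089 had no other merged peak within 20 kb and 2975 had 1, while 1121 had 2, 328 had 3, 108 had 4, 11 had 5 and 4 had 6. The median distance to the nearest other merged peak was 2982 bp for members and 46424 bp for the other merged peaks, a difference that the rule itself sets. Of the 532 clusters, 310 had 3 members, 70 had 4, 32 had 5 and 11 had 6 or more, up to 13. 12 clusters had 2 members and 97 had 1. In the clusters of 1 the neighbours that made a peak a member were not members themselves because they lacked a second neighbour.

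**Figure D1:**
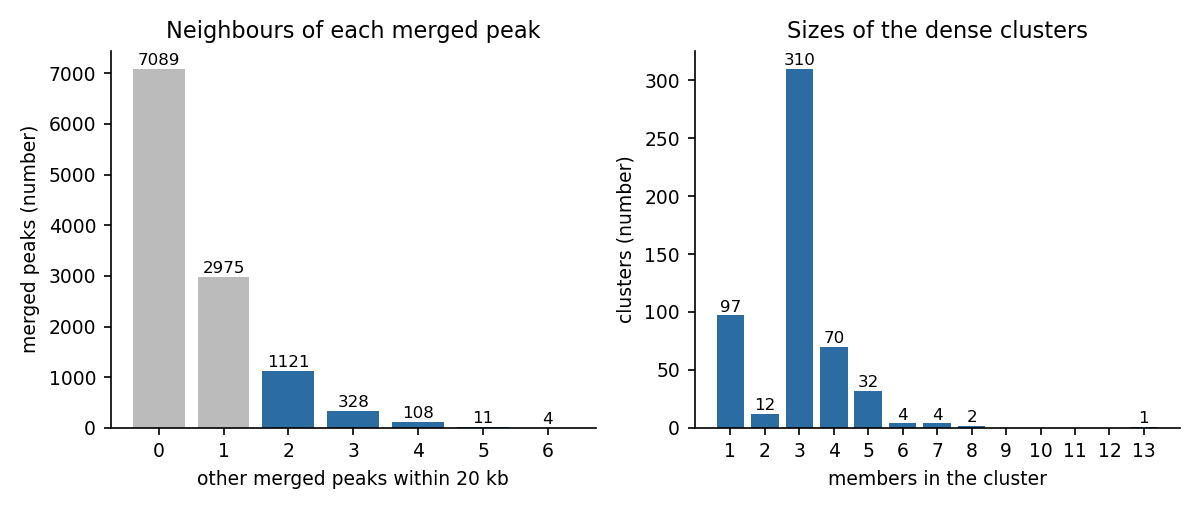
Left, number of merged peaks (bars) with 0 to 6 other merged peaks within 20 kb, members of dense clusters in blue and the other merged peaks in grey. Right, number of dense clusters (bars) by the number of their members, where 310 clusters of 3 members form the tallest bar and a single cluster reached 13.

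The 423 clusters with 3 or more members had a median span of 13804 bp (quartiles 7160.5 and 18940 bp), from 691 to 96093 bp. The 1040 gaps between the midpoints of neighbouring members of a cluster had a median of 4410 bp, and 257 of them (24.7%) were under 1 kb. The lowest gap was 200 bp, the width of a deposited peak, so the closest members adjoined each other. The members just inside the limit had their second nearest neighbour at 19994, 19994 and 19985 bp (nearest genes Gm20661, Ip6k1 and Osr1). The merged peaks just outside it had theirs at 20014, 20022 and 20026 bp (nearest genes Ncam1, G430095P16Rik and Zfp36l1). In all, 87 members had their second nearest neighbour beyond 19 kb and 100 other merged peaks had it between 20 and 21 kb.

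Clusters were found on all autosomes and on chromosome X. The share of merged peaks that were members ran from 7.28% on chromosome 19 and 7.42% on chromosome 3 to 17.2% on chromosome 6. Repeated sequence was described only in the 200 bp windows of the peaks, and its part in the clustering was not tested. The mean share of soft-masked (repeat) bases was 9.40% in member windows and 8.36% in the others, 1.40% and 1.36% of windows were masked over more than 50% of their bases, and 21 of the 1572 members shared an identical run of 30 bases with another member, 2 of them within their own cluster.

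Members lay in promoters less often than the other merged peaks did. By the annotation, 617 members (39.2%) were in introns, 595 (37.8%) were intergenic and 247 (15.7%) were in promoters, taken as 1000 bp upstream to 100 bp downstream of any transcript start, and the remaining members were in exons or at transcript ends (40 in noncoding or untranslated exons, 23 in coding exons, 50 at transcript ends). Among the other merged peaks 35.3% were in introns, 32.4% intergenic and 23.1% in promoters. In a logistic fit across all merged peaks, with intervals clustered by locus because neighbouring peaks are not independent, the odds of lying in a promoter were 0.619 times as high for members (95% interval 0.515 to 0.745, n = 11636 merged peaks, adjusted over 4 such fits p = 7.40e-07). CpG-island-like windows, with a GC content of at least 55% and an observed over expected CpG ratio of at least 0.65, made up 14.8% of members (Wilson 95% interval 13.1% to 16.7%) and 25.5% of the others (24.7% to 26.4%), with an odds ratio of 0.508 (0.416 to 0.620, n = 11636, adjusted p = 9.99e-11). Both shares were lower with more neighbours. Promoters were 23.4% of merged peaks with no neighbour, 18.5% with 2, 9.76% with 3 and 6.50% with 4 or more, and CpG-island-like windows were 26.0%, 17.7%, 8.54% and 5.69%. With the distance limit set to 10 kb, which was chosen after seeing the data, the promoter odds ratio was 0.878 (0.683 to 1.13, n = 11636, p = 0.313) and the difference was no longer called.

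The median distance from a member to the nearest protein-coding transcription start site (TSS) was 55334 bp, against 40506 bp for the other merged peaks. 20.4% of members and 29.5% of the others lay within 5 kb of a TSS, and 52.0% and 46.2% lay beyond 50 kb. The upper quartiles of the distance were 137758 and 139652 bp. Outside promoters and CpG-island-like windows, 22.8% of members and 19.5% of the others lay within 5 kb of any transcript start. Among intergenic peaks these shares were 15.3% and 10.5%, and among intronic peaks 28.4% and 29.6%. 158 clusters were wholly intergenic and 144 lay wholly in introns, while 156 clusters (29.3%) had at least 1 promoter member. Among the 423 clusters with 3 or more members, 293 had no CpG-island-like window and 23 had nothing else.

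The Scx core was present in 1024 member windows, or 65.1% (62.8% to 67.5%), in 60.7% (59.7% to 61.6%) of the other windows, and in 61.3% of all merged peak windows of the same length. The odds ratio was 1.21 (1.08 to 1.36, n = 11636, adjusted p = 0.00130). The difference varied with location and base composition. Within introns the share was 70.2% of members and 69.6% of others, within intergenic DNA 71.4% and 71.7% and within promoters 41.3% and 35.3%, and with GC content, the CpG-island-like call and location in the fit the odds ratio was 0.986 (0.873 to 1.11, n = 11636, p = 0.818). With members counted within 10 kb it was 1.09 (0.921 to 1.29, n = 11636, p = 0.310). By form, CAGATG or CATCTG was in 44.2% of member windows and 38.7% of the others, CAGCTG in 29.1% and 28.3%, and CATATG in 7.12% and 7.39%. Any CANNTG, which includes the Scx core, was in 82.4% and 78.7%.

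TGGAAA was present in 581 member windows, or 37.0% (34.6% to 39.4%), and in 31.1% (30.2% to 32.0%) of the others, with 31.9% of all windows. The odds ratio was 1.30 (1.15 to 1.46, n = 11636, adjusted p = 1.62e-05), and it was 1.19 (1.06 to 1.34, n = 11636, p = 0.00419) with GC content, the CpG-island-like call and location in the fit. The share was 31.5% with no neighbour, 36.5% with 2, 36.0% with 3 and 43.9% with 4 or more. By location, TGGAAA was in 17.41% of members and 10.65% of others within promoters, where the difference was widest. Within introns it was in 39.55% and 38.03%, and within intergenic DNA in 43.70% and 40.64%. Outside promoters and CpG-island-like windows it was in 42.63% (39.91% to 45.39%) of members and 40.83% (39.68% to 41.99%) of others, with overlapping intervals. Both motifs were in 25.2% of member windows and 21.9% of the others. At the level of clusters, 300 of the 423 with 3 or more members held both motifs somewhere, 108 had a Scx core in every member and 28 had it in none.

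**Figure D2:**
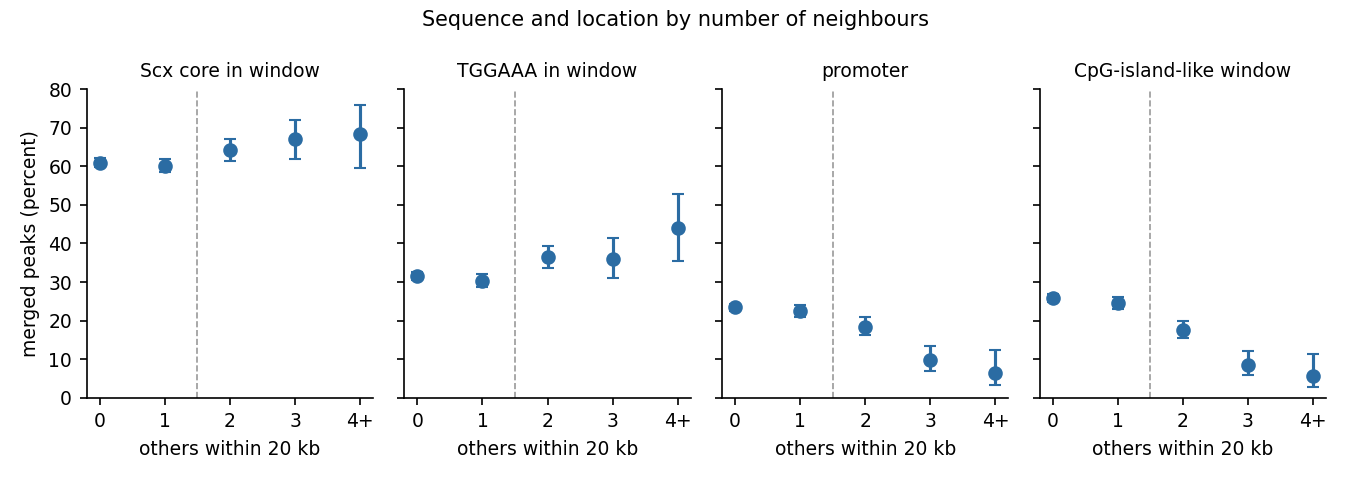
Share of merged peaks (percent, with Wilson 95% intervals) with a Scx core, with TGGAAA, in a promoter and with a CpG-island-like window, by the number of other merged peaks within 20 kb, where members stand to the right of the dashed line. The Scx core was in 60.9% with no neighbour and 68.3% with 4 or more and TGGAAA in 31.5% and 43.9%, while promoters made up 23.4% and 6.50% and CpG-island-like windows 26.0% and 5.69%.

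The cluster with the most members was an intergenic block of 13 on chromosome 5, chr5:73702356-73798448, that spanned 96093 bp. Its members lay 51.1 to 147 kb beyond the start of Spata18, the nearest protein-coding gene, which encodes a mitochondrial quality control protein and was low in the sorted cells, with a mean FPKM of 0.956 in control and 1.24 in Scx-/-. Sgcb, which encodes beta-sarcoglycan, has its start 54566 bp from the cluster and had a mean FPKM of 19.3 and 21.6. 7 of the 13 members held a Scx core, 7 held TGGAAA and none was CpG-island-like.

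A cluster of 8 members, chr1:162207591-162257375, lay inside Dnm3, which encodes a dynamin GTPase (mean FPKM 3.13 in control and 2.74 in Scx-/-), although 3 of the members were nearer to the start of 4930558K02Rik. A pair of its members were in the promoter of the noncoding gene Dnm3os, which is transcribed opposite to Dnm3 and is the host of the microRNA genes Mir199a-2 and Mir214. The midpoint of the closer one stood 122 bp before the Dnm3os start. Both microRNA genes lie inside the cluster. Dnm3os had a mean FPKM of 31.4 in control and 32.6 in Scx-/-. Its reads cannot be told apart from those of Dnm3 where the genes overlap, because the counting is not stated to use strand. Dnm3os was looked up after the values were seen.

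The other cluster of 8 members, chr2:27828215-27903539, surrounded the start of Col5a1, which encodes a chain of collagen V, a regulator of collagen fibril assembly. 5 members were intergenic, from 58.1 to 12.9 kb before the start, 1 was in an exon of a noncoding gene 2.99 kb before it, and members at 2.36 and 17.0 kb were in the first part of the gene. Col5a1 had a mean FPKM of 157 in control and 158 in Scx-/-.

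Among the clusters of 7 members, one of 29256 bp on chromosome 18 lay wholly within Nfatc1, which encodes a calcium-regulated transcription factor of the Nfat family, with members 66.5 to 95.6 kb into the gene. 5 of these held a Scx core and 4 held TGGAAA, and the mean FPKM of Nfatc1 was 14.2 in control and 12.8 in Scx-/-. The cluster chr12:73367027-73402152 lay in introns of the noncoding gene D830013O20Rik, with Slc38a6 as the nearest protein-coding start 80248 bp away (mean FPKM 3.75 and 4.18). The cluster chr6:30675267-30715330 ran from within Cep41, which encodes a centrosomal protein (mean FPKM 11.2 and 9.03), to 8.32 kb before Mest, an imprinted gene that was expressed at 1188 and 1196. The cluster chr7:51851919-51894719 ran across the start of Gas2, which encodes a regulator of the actin cytoskeleton (mean FPKM 50.5 and 39.5), and of Fancf, a DNA repair gene (4.69 and 4.93).

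3 clusters of 6 members complete the 10 with the most members. One on chromosome 18, 80135 bp from the start of Svil (mean FPKM 25.7 and 26.4), which encodes the actin-binding protein supervillin, had a Scx core in 4 members and TGGAAA in 5, and 1 of its windows was soft-masked in full. Another, chr11:75013038-75054499, lay wholly in introns of Smg6, an RNA decay gene (16.8 and 17.4), with Srr (20.5 and 21.2) and Hic1, which encodes a transcriptional repressor (15.8 and 17.1), as nearest starts by position. The last, chr7:83435083-83477768, had Tmc3 as its nearest protein-coding start 107 kb away (0.524 and 0.694).

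**Figure D3:**
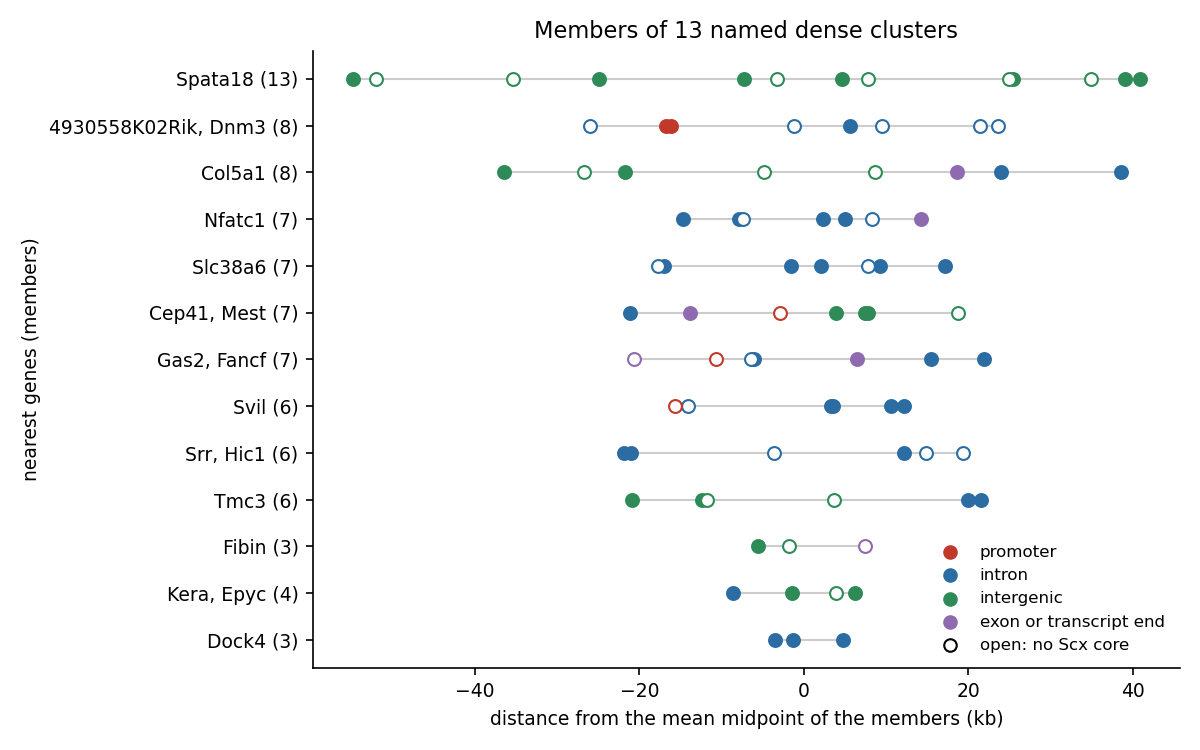
Members (points) of the 13 named clusters with 3 or more members, by distance in kb from the mean of their midpoints, with the nearest genes and the number of members on the left. Colour gives the location in the annotation and open points are windows without a Scx core; the Spata18 cluster is wholly intergenic, the Slc38a6, the Srr and Hic1 and the Dock4 clusters are wholly intronic, and the 3 members at Dock4 are all filled.

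Several loci held more than 1 cluster. Slc4a3, an anion exchanger gene with a mean FPKM of 4.20 in control and 4.17 in Scx-/-, was the nearest protein-coding gene of 16 members in 5 clusters, all in the intergenic DNA 107 to 778 kb from its start. Tgfbr2, which encodes the type II receptor of TGF-beta, a signal that tendon progenitors need, was nearest to 15 members in 6 clusters. 1 of these was 36.5 kb into the gene and held 4 Scx cores, 6 were intergenic 200.8 to 252 kb before the start, and 8 lay 542 to 688 kb away inside Rbms3. Gas1, which encodes a cell surface co-receptor of hedgehog signaling, was nearest to 13 members in 3 clusters, of which 3 members lay 157 to 170 kb downstream and 10 lay 78.6 to 171 kb upstream. The mean FPKM of Tgfbr2 was 52.3 in control and 49.6 in Scx-/-, and that of Gas1 was 65.4 and 55.1. Slc4a3 and Gas1 are named because of their counts of members. Over distances of this size the nearest start is a label of position and does not show which gene a member acts on.

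The 1572 members had 548 nearest protein-coding genes, of which 494 (90.1%) were in the expression table. The genes nearest to dense clusters had a median mean FPKM of 12.7 in control cells (quartiles 4.75 and 28.8), above the 9.13 of genes nearest to other merged peaks only, the 4.86 of genes nearest to no peak and the 6.18 of all genes. 70 of the 494 (14.2%) reached 50 FPKM in control, against 8.81% and 4.92% in the other groups and 6.44% of all genes. By the number of members, the median was 10.8 for genes nearest to 1 or 2 members, 12.9 for 3 members and 15.3 for 4 or more, while the share at 50 FPKM or more was 16.2%, 9.57% and 19.8%, with no order by member number. Genes are not replicates and no test was run on these levels. In sorted cells of this kind, less RNA per cell and fewer cells of a type cannot be told apart.

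**Figure D4:**
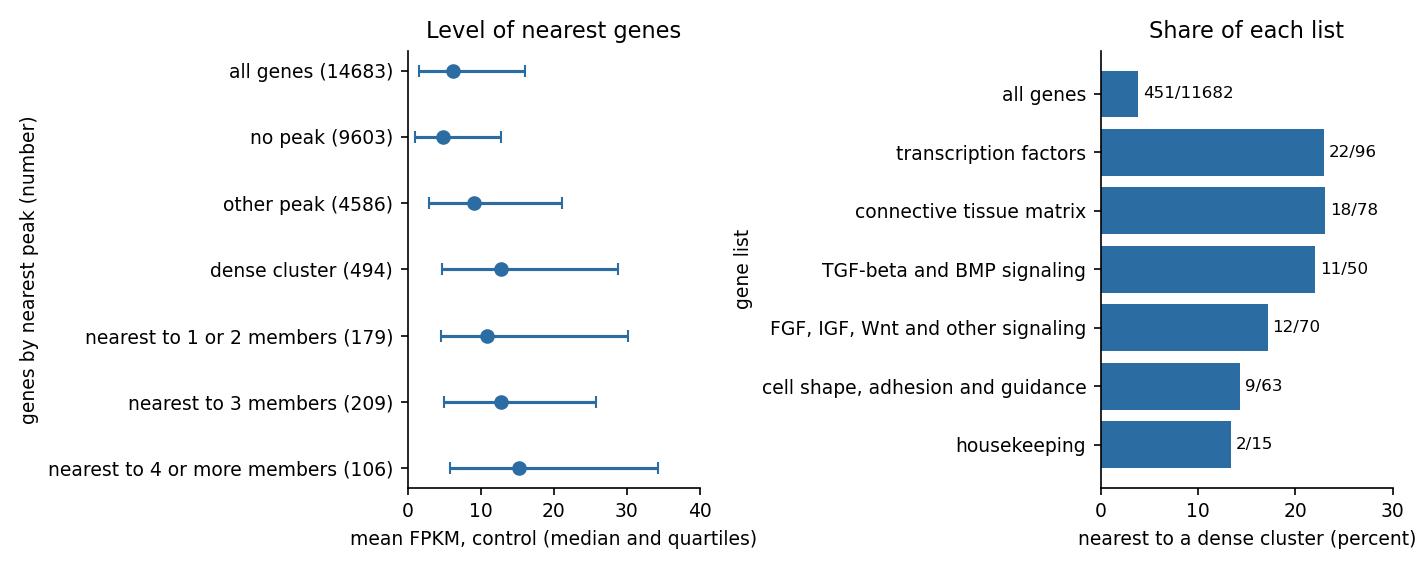
Left, median (points) and quartiles (bars) of the mean FPKM in control for genes grouped by nearest peak, with 12.7 for the 494 genes of dense clusters and 6.18 for all genes. Right, share (percent) of each gene list that was nearest to a dense cluster, among genes with a mean FPKM of at least 1, from 13.3% of the housekeeping list to 23.1% of the matrix list and 3.86% of all genes.

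Few genes near dense clusters were past 1.5-fold between Scx-/- and control cells. Of 451 with a mean FPKM of at least 1 over both groups, 5 (1.11%) were lower past 1.5-fold in Scx-/- and 2 (0.443%) were higher, where past 1.5-fold refers to the ratio of mean FPKM plus 0.1. Of all 11682 genes at that level, 0.479% were lower and 0.402% were higher. Scx, the gene deleted in the mutant, is counted among the 5, so its fall is set by the genotype. The median log2 ratio was -0.02 for the genes near dense clusters and -0.00 for all genes. With 1 mean per group no p-value can be given here, and a gene under this limit is not thereby shown to be unchanged. Rflnb (16.5 in control and 11.8 in Scx-/-), Aqp1 (22.7 and 16.3), C1qtnf3 (42.7 and 31.9) and Olfml2b (33.1 and 25.1), named after their values were seen, lay under it, with 3, 3, 4 and 3 members. By its own FDR limit, the paper lists all of these and Ccdc88a as down-regulated genes with Scx peaks, and Fibin as up-regulated. Of the genes past 1.5-fold here, Kera, Six2 and Dock4 are in its lists, and Scx, Col11a2, Mgmt and Smim24 are not.

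The genes past 1.5-fold were spread over clusters of different kinds. Kera, which encodes keratocan, a keratan sulfate proteoglycan of the small leucine-rich family, had a mean FPKM of 243 in control and 112 in Scx-/-, 2.17-fold lower. Its cluster of 4 members, chr10:97611918-97626948, began 5.14 kb into Kera, continued at 12.3 and 17.7 kb and ended 17.2 kb before the start of Epyc, between these neighbouring proteoglycan genes. 3 of the 4 members held a Scx core and 2 held TGGAAA. The other genes around the cluster did not share the ratio of Kera. Lum, which encodes lumican and starts 46790 bp from the cluster, was at 366 and 387, and Epyc, which encodes epiphycan, was at 2.77 and 2.04. Tnmd and Fmod, tendon markers with no dense cluster, were at 135 and 84.7 in control and 13.8 and 22.3 in Scx-/-.

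Scx itself was nearest to 1 member. The mean FPKM of Scx was 88.6 in control and 41.9 in Scx-/-, 2.11-fold lower, which is the check of the targeted gene. The mutant allele lacks the coding sequence. By in situ hybridization with a probe for that sequence, the paper found no Scx mRNA in E13.5 Scx-/- forelimbs. Which part of the locus the reads behind these FPKM values came from cannot be told from group means.

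Col11a2, which encodes a chain of the fibril-nucleating collagen XI, had the largest ratio among the 451 genes, with a mean FPKM of 6.74 in control and 2.44 in Scx-/-, 2.69-fold lower. Its member, made of 3 overlapping deposited peaks, was 2.13 kb into the gene with 1 Scx core. The other members of that cluster of 3 were CpG-island-like windows at the promoters of Ring1 and Rxrb. Col2a1, the main cartilage collagen and often expressed with Col11a2, was at 78.3 and 57.1, and Acan at 5.47 and 3.74. The other cartilage markers, Sox9 (16.8 and 17.2), Col9a1 (8.54 and 8.62) and Matn1 (0.761 and 0.796), were not lower in Scx-/-. The part of cartilage cells in the ratio was not tested.

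Six2, a homeobox gene of limb connective tissue, was at 6.34 and 3.96, 1.58-fold lower, with 1 member 205 kb upstream in an intron of an unnamed gene model and neighbouring merged peaks 11666 bp and 13322 bp to either side. That trio held 1, 1 and 3 TGGAAA sites, and only the middle one held a Scx core. Dock4, which encodes a guanine nucleotide exchange factor that acts in cell protrusions, was at 3.41 and 2.21, 1.52-fold lower, with 3 members 248 to 256 kb into its introns, each with a Scx core. With a pseudocount of 1 FPKM the ratios of Six2 and Dock4 were 1.48 and 1.37, under the limit.

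Higher in Scx-/- were Mgmt, a DNA repair gene, at 1.96 in control and 3.54 in Scx-/- (1.77-fold), and Smim24, which encodes a small membrane protein, at 1.80 and 3.06 (1.66-fold). With a pseudocount of 1 FPKM the ratio of Smim24 was 1.45, under the limit. The 4 members of the Mgmt cluster were intergenic and 489 to 517 kb before its start, and the 3 members nearest to Smim24 were inside the neighbouring gene Nfic. The next largest ratios in this direction did not reach 1.5-fold. Rbpj, which encodes the DNA-binding factor of Notch signaling, was at 12.5 and 17.5 (1.39-fold), with all 5 members of its cluster in its introns between 3.81 and 20.1 kb. Fibin, a secreted protein gene expressed in limb, was at 50.6 and 70.4 (1.39-fold), with members 13.2, 9.46 and 0.195 kb downstream of its start and 1 member 48.4 kb upstream. Asb13 was at 0.978 and 1.38 (1.37-fold).

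**Figure D5:**
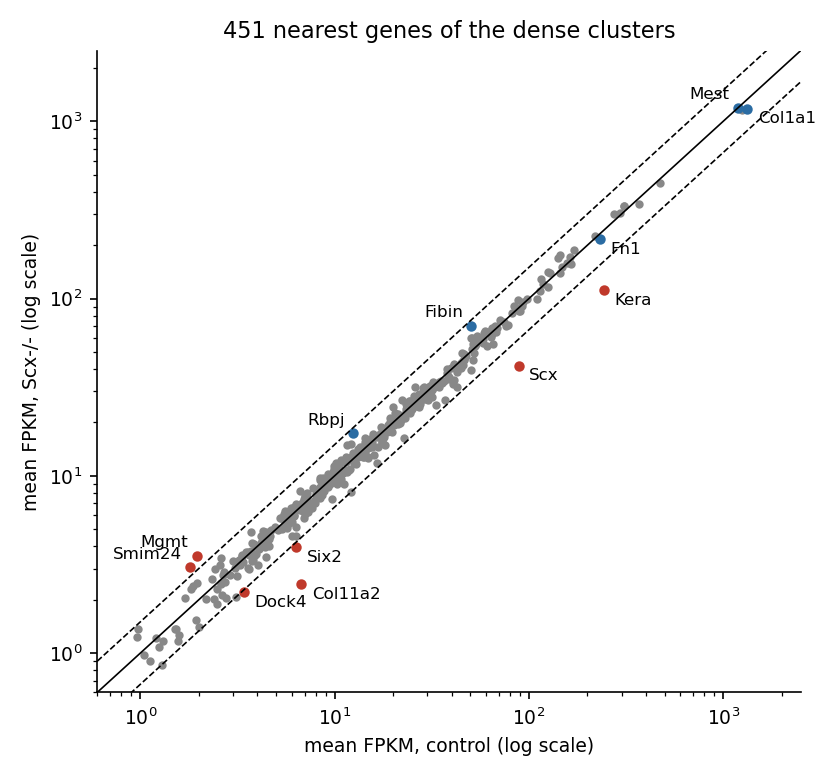
Mean FPKM in Scx-/- against control on log axes for the 451 nearest genes with a mean of at least 1, each point 1 gene, with the line of equality (solid) and 1.5-fold lines (dashed). Red points are the 7 genes past 1.5-fold, of which Kera and Scx are the highest expressed, and Mest, Col1a1, Fn1, Fibin and Rbpj (blue) lie between the lines.

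Gene lists for connective tissue were compared with all genes by counts. Among genes with a mean FPKM of at least 1, a dense cluster was nearest to 22 of 96 limb and connective tissue transcription factors (22.9%), 18 of 78 matrix genes (23.1%), 11 of 50 TGF-beta and BMP genes (22.0%), 12 of 70 other signaling genes (17.1%), 9 of 63 cell shape, adhesion and guidance genes (14.3%) and 2 of 15 housekeeping genes (13.3%), against 451 of all 11682 genes (3.86%). Any merged peak was nearest to 80.2% of the transcription factors, 69.2% of the matrix genes and 37.8% of all genes. These counts carry no test, and the lists were drawn up with earlier results of the series known.

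Among the transcription factors near dense clusters, 2 of 22 were lower past 1.5-fold and none was higher, against 0.479% and 0.402% of all genes. The lower genes were Scx, the gene deleted in the mutant, and Six2. The median log2 ratio of all 22 was -0.01. Nfib, a nuclear factor I gene, had the highest level (116 in control, 129 in Scx-/-), with 1 member 438 kb from its start. Tcf4, which encodes an E-protein partner of factors of the Scx class, was at 88.5 and 85.4, with a cluster of 3 about 218 to 226 kb upstream and another of 3 at internal promoters of the gene. Osr1, a zinc finger gene of limb connective tissue, was at 86.7 and 88.0, with 4 members 211 to 232 kb upstream that held 7 Scx cores between them. Twist1, another helix-loop-helix gene, named after its values were seen, was at 44.8 and 43.5, with members at its promoter, in its coding exon and 6.46 kb downstream, and 3 more inside Hdac9.

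Among the matrix genes, Kera and Col11a2 were lower past 1.5-fold and none of the 18 was higher, against 0.479% and 0.402% of all genes, and the median log2 ratio was -0.00. Col1a1 and Col1a2, which encode the chains of collagen I, had the highest levels of all nearest genes in control (in Scx-/- that of Mest was higher), with a mean FPKM of 1333 and 1249 in control and 1178 and 1153 in Scx-/-. The Col1a1 cluster was wholly intergenic, with members 2.65, 7.11 and 19.6 kb upstream of the start and 3 Scx cores in all. The Col1a2 cluster had 2 members 58.7 and 68.1 kb upstream. Fn1, which encodes fibronectin, was at 232 and 216, with a cluster of 6 members 212 to 257 kb upstream that held 6 Scx cores and 7 TGGAAA sites.

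None of the 11 TGF-beta and BMP genes near dense clusters was past 1.5-fold, against 0.479% lower and 0.402% higher of all genes. With shares that low, a count of none in 11 genes is not a result about the list. The median log2 ratio of the 11 was 0.00. Ski, which encodes a repressor of Smad signaling, was at 74.3 and 73.7, with a pair of CpG-island-like members in coding sequence near its start and a further pair 11.4 and 12.3 kb upstream. Ltbp1, which encodes a binding protein of latent TGF-beta, was at 46.5 and 48.9, with members at its promoter and 9.21 and 14.7 kb into its introns. Tgfb2, which encodes a ligand, was at 41.5 and 41.2, with 1 member 10.4 kb into the gene that held 2 Scx cores.

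The 12 genes of the other signaling list had a median log2 ratio of 0.06. None of the 12 was past 1.5-fold, against 0.479% lower and 0.402% higher of all genes, so this too is not a result about the list. Igfbp4, a binding protein of insulin-like growth factors, was at 273 and 299, with 1 member at an internal promoter 6005 bp into the gene. Cdon, which like Gas1 encodes a hedgehog co-receptor, was at 92.9 and 95.4, Pdgfra, which encodes a receptor of platelet-derived growth factor, was at 88.2 and 98.2 with members 3.26, 3.51 and 8.77 kb upstream, and Dkk2, a Wnt modulator, was at 71.3 and 75.3 with members 245 and 254 kb upstream.

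In the cell shape list, Dock4 was the only 1 of 9 genes past 1.5-fold (lower, against 0.479% of all genes), and the median log2 ratio was -0.13. Tpm1, which encodes tropomyosin, was at 125 and 116, with 1 member 32.2 kb upstream. Ccdc88a, which encodes the actin-binding protein girdin, was at 40.8 and 33.1, with a CpG-island-like member at its start and others 2.699 and 13.52 kb upstream. Itga5, which encodes the fibronectin-binding integrin chain, was at 34.6 and 31.6, with members in coding sequence near its start, at its promoter and 4.63 kb upstream. Sema3a, a guidance ligand, was at 23.4 and 25.5, with 3 members about 274 to 277 kb from its start within the gene. The housekeeping genes near clusters were Ppia, at 470 and 447, whose single member lay inside Zmiz2, and Ywhaz, at 163 and 159, whose 3 members were all CpG-island-like promoter windows.

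Clusters also lay over noncoding genes, which the nearest-gene rule did not count. 20 noncoding genes with a mean FPKM overlapped a cluster, of which 9 had at least 1 FPKM in control. The highest were Meg3, an imprinted long noncoding RNA, at 64.6 and 70.1 with 2 of 3 members inside the gene, Tug1, at 45.8 and 48.0 with 3 members in a span of 968 bp at its start and no Scx core in any of them, and Dnm3os. 2810442N19Rik is transcribed opposite to Dnm3. Its start lay inside a member of a cluster of 5, chr1:162001192-162020554, 82 bp beyond the midpoint of that member. At 2.63 and 1.04, 2810442N19Rik was the only one of the 9 past 1.5-fold. Lower past that limit were 0.479% of the 11682 genes with a protein-coding start, and the share over all noncoding genes is not given. The reads of 2810442N19Rik too cannot be told apart from those of Dnm3 where they overlap. H19, another imprinted noncoding RNA and among the most abundant transcripts in these cells at 2910 and 3110, did not overlap a cluster, and the nearest of 4 members of the cluster beside it, chr7:142538268-142571856, was 6387 bp beyond its start. In all, 24 microRNA genes lay within 20 kb of 19 clusters. These genes were looked up after the values were seen.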

How the data were processed

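ChIP-seq peaks were made by the authors with STAR 2.7.4 and HOMER 4.11 on mm10, with aligned reads down-sampled to 1 common number and then deduplicated. Peaks of the 3 replicates were pooled, and those past thresholds on fold and FDR against input were kept. The deposited table gives 200 bp peaks with a score of 0 throughout, so the strength of a single peak is unknown. The deposited FPKM values are the authors' means per group for 15671 genes, and 3 further columns hold their own comparison (fold change, p-value and FDR) and were not used. Here peaks were merged where they overlapped, set against GENCODE M21 and the RefSeq GRCm38.p6 genome, and given the nearest protein-coding TSS. 14683 genes matched, 194 by an older symbol, and 21 symbols had turned into dates. Logistic fits used statsmodels 0.14.6, with p-values adjusted by Benjamini-Hochberg over 4 fits. Ratios used a pseudocount of 0.1 and a mean FPKM of at least 1. Scripts were tested on simulated data. Members and lists were chosen with earlier results of these data known. Named clusters were the 10 with the most members (ties by shorter span) and those nearest to a list of genes drawn from the study, which does not hold every gene it singles out. Named genes were their nearest genes, the 5 largest ratios each way and up to 4 genes of highest control level per list. The printed windows are, per cluster, those with the most Scx cores and then the most TGGAAA, with windows over exons left out after the values were seen. The window of 1 named cluster is not reported here. Alternatives covered distance, neighbour number, merging, window, promoter, CpG call, covariates, interval clustering, gene assignment, pseudocount, level filter and fold. Merging was varied for the number of members only, and the odds ratios were not fitted without it.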

Additional observations from a re-analysis of the deposited data

How the results depend on the processing

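The number of members was 726 with 10 kb, 3555 with 50 kb and 451 with 3 others needed, against 1572, and 2043 without merging of overlapping peaks. The odds ratio for the Scx core was 0.986 (n = 11636 merged peaks, p = 0.818) with GC content, the CpG-island-like call and location as covariates, the only direction that changed. With members by 10 kb, chosen after seeing the data, it was 1.09 (n = 11636, p = 0.310) and that for promoters 0.878 (p = 0.313). All other odds ratios kept their direction and their side of 0.05, with the TGGAAA ratio between 1.19 and 1.33 and that of CpG-island-like windows between 0.256 and 0.706. Genes near a dense cluster numbered 911 by regulatory domains (5 kb upstream and 1 kb downstream, extended up to 1000 kb), against 548. Counts past the fold were 3 lower and 1 higher with a pseudocount of 1 FPKM, 10 and 5 with no filter on low values, 3 and 0 with a mean FPKM of at least 5, and 3 and 0 at 2-fold, against 5 and 2. The share over all genes at these settings is not given, so these counts are not compared with it. For starts within 100 kb they were 3 and 1 of 341 genes (0.880% and 0.293%), against 0.479% and 0.402% of all genes. Scx, the gene deleted in the mutant, is among the lower genes in each of these counts. Six2, Dock4 and Smim24 lost the call with the larger pseudocount, Col11a2, Dock4, Mgmt and Smim24 with the stricter filter, Six2, Dock4, Mgmt and Smim24 at 2-fold, and Six2, Dock4 and Mgmt within 100 kb. No paired analysis was possible because the tables used hold group means and no values of single samples, so leaving out replicates was not run either. A stricter peak threshold was not run because the peak table ranks peaks by no measure of strength. Intervals cover sampling among peaks only, and depth limits are unknown.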
